A study of Nicotiana benthamiana with 12 samples.

Results

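The 6 probes described here were annotated as APS reductase-like in the study's list of genes that differed between the transgenic line and wild type under salt stress, out of 43759 probes on the tobacco array. APS reductase reduces activated sulfate, adenosine phosphosulfate (APS), to sulfite in plastids, with glutathione as the electron donor in plants. Sulfite is then reduced to sulfide and built into cysteine, from which methionine and glutathione are made. In Arabidopsis the step is a main point of control of sulfate assimilation, and APS reductase transcripts are known there to rise when sulfur is short and to fall when thiols accumulate.

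The data were 12 one-colour arrays of Nicotiana benthamiana, hybridised to probes designed for Nicotiana tabacum. Wild type (WT) and line L2 were compared, each under normal conditions and after 6 h with 200 mM NaCl, with 3 arrays per group. Plants were 2 weeks old, and the growth temperature was 25 °C under 16 h light and 8 h dark. L2 is 1 homozygous line carrying CbFAD3, the microsomal omega-3 fatty acid desaturase gene of Chorispora bungeana, driven by the CaMV 35S promoter, so a difference between L2 and WT is a difference of this line and not of several independent ones. RNA of each array came from pooled plants, 3 by one description and 5 by another, and all groups share the growth conditions. Values are log2 processed signals relative to the 75th percentile of the array, so 0 is a signal equal to that percentile. A level of one probe cannot be set against the level of another.

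The probes were A_95_P170234 (EH664856), A_95_P259371 (FG171287), A_95_P000116 (FG157904), A_95_P186302 (TA14095_4097), A_95_P134087 (EB435916) and A_95_P134072 (HO663864). These are the array's own names, and the study's list gives A_95_P186302 as EB436456 instead. The probes carry 6 different accessions, and how many tobacco or N. benthamiana genes they stand for was not analysed here. All 6 were well above background on all 12 arrays. The lowest raw signal of any of their spots was 10.3 times its local background. A_95_P000116 was printed as 5 spots and the others as 1 spot each.

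What chose the probes limits what can be tested. Read as linear folds, although the list heads them as log2, the listed values match the arrays of samples 1 and 2 of each salt group for 6 of 6 probes within 0.01, and the 3 arrays of each salt group for 0 of 6. On those samples L2 was above WT by between 1.05 and 1.84 on the log2 scale. The probes were thus selected on the values of L2 salt 1 and 2 against WT salt 1 and 2. Comparisons that use these arrays are therefore given as descriptions without p-values. The arrays under normal conditions, and sample 3 of each salt group, took no part in that choice and were tested with limma. Counted probes had to differ by more than 2-fold with a p below 0.05 after Benjamini-Hochberg adjustment over the 26312 probes of the fit.

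The arrays lay on 3 slides. Slide 1 held WT normal 1, 2 and 3 with L2 normal 1, slide 2 held L2 normal 2 and 3 with WT salt 1 and 2. On slide 3 were WT salt 3 and the L2 salt arrays. The share of probes well above background ranged from 49.2% to 63.0% over the arrays. The 75th percentile of processed signal was 787 to 998 on the arrays of slide 1 and 1365 to 2421 on slides 2 and 3. Comparisons across slides therefore rest on the scaling to that percentile. L2 normal 1 stood apart from L2 normal 2 and 3 over the array as a whole, and its limma array weight was 0.137, against 2.59 for L2 normal 2 and 0.295 for L2 normal 3. In neither line did a salt array share a slide with a normal array, so a fit with the slide as a block reaches the salt changes only through arrays of other groups that link the slides. For L2 under normal conditions, 1 array shared the slide of the WT arrays. Whether replicates came from separate sets of plants is stated only as pooling, so the p-values measure the spread between these samples. With arrays of pooled leaf or seedling RNA, fewer cells expressing a transcript and less of it per cell cannot be told apart.

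Under normal conditions the APS reductase-like probes were highest in WT, and the 3 L2 arrays lay below the 3 WT arrays for 6 of 6 probes in scaled values. Before scaling, L2 normal 2 was at 1782 for A_95_P259371, above the WT normal arrays at 1451 to 1667. It was at 1680 for A_95_P186302 and 2580 for A_95_P134087, inside the WT ranges of 1361 to 1771 and 2418 to 2985. For these probes the lines were thus separated only once scaled. A_95_P170234 and A_95_P134072 were lower on every L2 array before scaling too. Group means of L2 were 2.11- to 3.81-fold lower than those of WT, and A_95_P170234 had the largest difference. The spread between L2 arrays was wider, with an SD of 0.62 to 0.74 in L2 against 0.15 to 0.32 in WT. The L2 arrays lay below all WT arrays for 3169 of the 26312 probes tested, and the lines did not overlap, in either direction, for 20.7%.

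A_95_P170234 was at -0.97, -0.48 and -0.60 on the WT normal arrays and at -2.37, -2.03 and -3.44 on the L2 normal arrays. The gap between the lines exceeded the range within WT but not that within L2, in which L2 normal 3 was lowest. L2 was lower by 1.93 ± 0.48 on the log2 scale (SE of the limma fit, n = 3 per group), with an adjusted p of 0.188 from limma.

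A_95_P259371 was at 0.54, 0.97 and 0.88 in WT and at -0.70, 0.08 and -1.15 in L2. Its highest L2 array, L2 normal 2, came closest to WT of the 3. The difference was -1.39 ± 0.43 (SE), with an adjusted p of 0.208 from limma.

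A_95_P000116, the mean of its spots, was at 1.42, 1.79 and 1.74 in WT and at 0.20, 0.54 and -0.74 in L2. The WT arrays lay within 0.38 of each other, while L2 normal 3 was again far below the other L2 arrays. The difference was -1.65 ± 0.41 (SE), with an adjusted p of 0.188 from limma. Each of the 5 spots taken alone gave a difference between -1.70 and -1.59, so the size did not depend on which spot was read.

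A_95_P186302 was at 0.45, 1.09 and 0.75 in WT and at 0.16, 0.00 and -1.09 in L2. L2 normal 1 was closest to WT here, 0.29 below the lowest WT array. The difference was -1.07 ± 0.33 (SE), the smallest of the 6, with an adjusted p of 0.209 from limma.

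A_95_P134087 was at 1.28, 1.85 and 1.56 in WT and at 0.84, 0.62 and -0.37 in L2. The order of the L2 arrays was that of A_95_P186302. The difference was -1.20 ± 0.33 (SE), with an adjusted p of 0.20 from limma.

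A_95_P134072 was at 2.32, 2.57 and 2.59 in WT and at 1.52, 1.09 and 0.16 in L2. Its WT arrays were the closest together of the 6 probes, with an SD of 0.15. The difference was -1.57 ± 0.33 (SE), and the adjusted p of 0.175 from limma was the lowest of the 6.

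**Figure D1:**
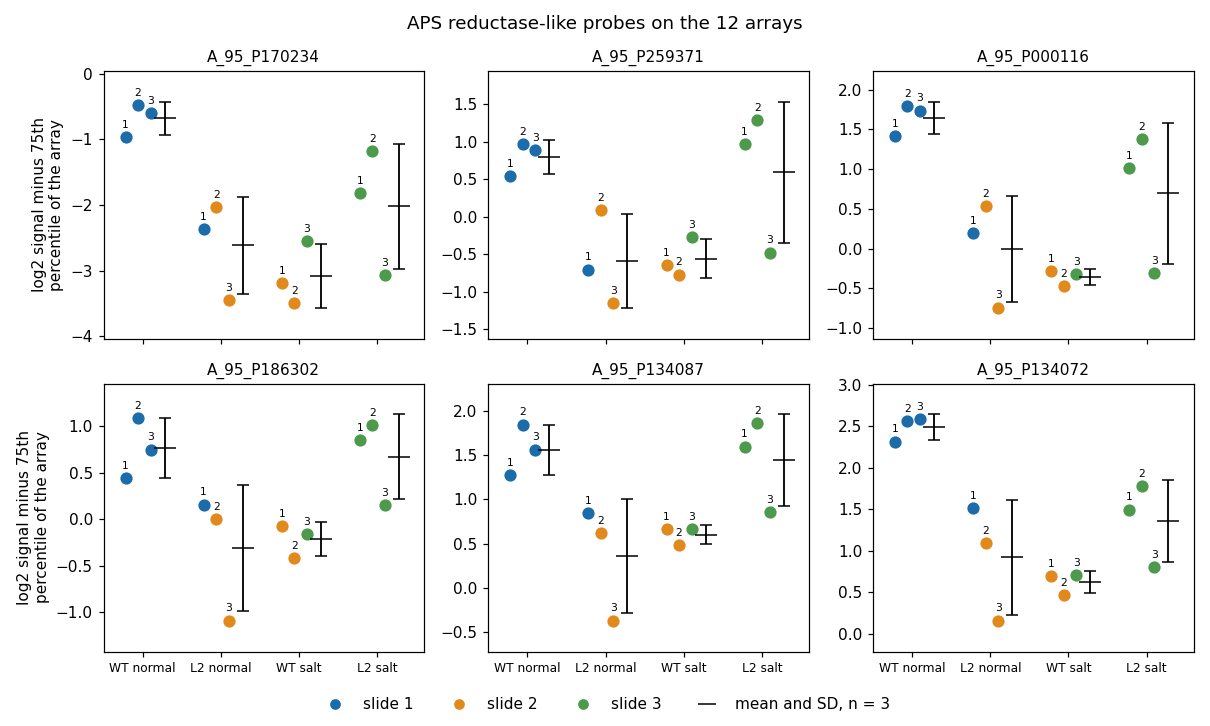
Log2 processed signal relative to the 75th percentile of the array for the 6 APS reductase-like probes, 1 panel per probe, each with its own scale. Points are arrays, numbered by sample and coloured by slide, and bars are the group mean and SD (n = 3). For 6 of 6 probes the WT normal arrays lie above all L2 normal and all WT salt arrays, and L2 salt 3 is the lowest L2 salt array.

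Over the 6 probes the median difference under normal conditions was -1.48, against -0.15 over all probes tested. The unadjusted limma p lay between 0.000567 and 0.00829 for the 6 probes, below 0.05 for 6 of 6, as for 20.9% of all probes tested. After adjustment 0 of 6 were counted as changed, against 0.0266% of all probes (7 of 26312). The count turns on 1 array. Without L2 normal 1, limma counted 5 of 6 as lower, all but A_95_P259371, with adjusted p of 0.00313 to 0.0617 over the 6 probes. It then counted 8.38% of all probes as lower. Without L2 normal 1 the L2 normal arrays were on slide 2 and the WT normal arrays on slide 1. Line and slide then cannot be told apart. With array weights, which gave L2 normal 1 a weight of 0.137, 4 of 6 were counted, and 8.04% of all probes were counted as lower. That fit too rests mostly on arrays of different slides. Without L2 normal 3 the adjusted p lay between 0.402 and 0.606 and 0 of 6 were counted, with differences from -1.52 to -0.69.

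**Figure D2:**
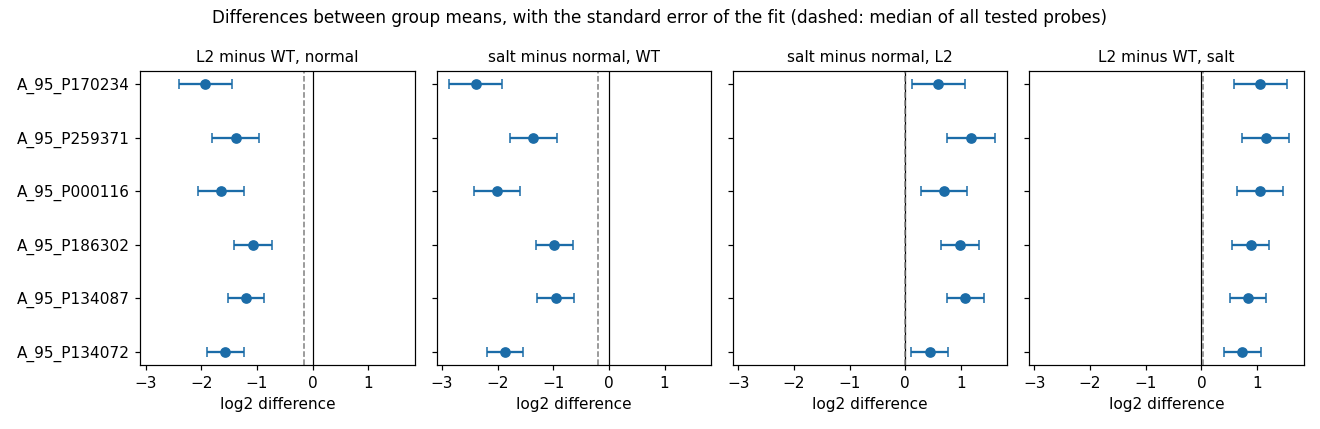
Log2 difference between group means for each probe in 4 comparisons, with the standard error of the limma fit as bars (3 arrays per group). The dashed line is the median over all 26312 probes tested, and the probes lie below it in the first 2 panels and above it in the last 2.

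L2 normal 1 shared slide 1 with the 3 WT normal arrays, and so gives the comparison of the lines within a slide. It was below all 3 WT arrays for 6 of 6 APS reductase-like probes, which was the case for 26.3% of all probes tested. Relative to the WT normal mean it was at -1.68 for A_95_P170234, -1.50 for A_95_P259371 and -1.45 for A_95_P000116. These 3 probes were thus 2.74- to 3.22-fold lower on L2 normal 1 than in WT on the same slide.

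The other 3 were lower by less. L2 normal 1 was at -0.61 for A_95_P186302, -0.72 for A_95_P134087 and -0.97 for A_95_P134072. For A_95_P186302 and A_95_P134087 its gap to the lowest WT array, 0.29 and 0.43, was smaller than the range within WT, 0.65 and 0.57. For the other 4 the gap exceeded that range.

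The 2 L2 arrays of slide 2 gave larger differences to WT for 5 of the 6 probes, between -2.05 and -1.31. A_95_P259371 was the exception, at -1.33 against -1.50 on L2 normal 1. Over all probes tested the median of L2 normal 1 relative to the WT mean was 0.03, and that of L2 normal 2 and 3 was -0.23. Of 2749 probes that were more than 2-fold lower than WT on L2 normal 2 and 3, the 6 among them, the median on L2 normal 1 was 0.02. On that array 8.29% of the 2749 were lower than WT by more than 0.5 on the log2 scale and 1.96% by more than 1, against 6 of 6 and 3 of 6 APS reductase-like probes. One array has no replicate on its slide, so these are values without a test. With the slide as a block in limma, which rests on this array, the differences were -1.68 to -0.61, the unadjusted p 0.0384 to 0.225 and the adjusted p 1.00.

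**Figure D3:**
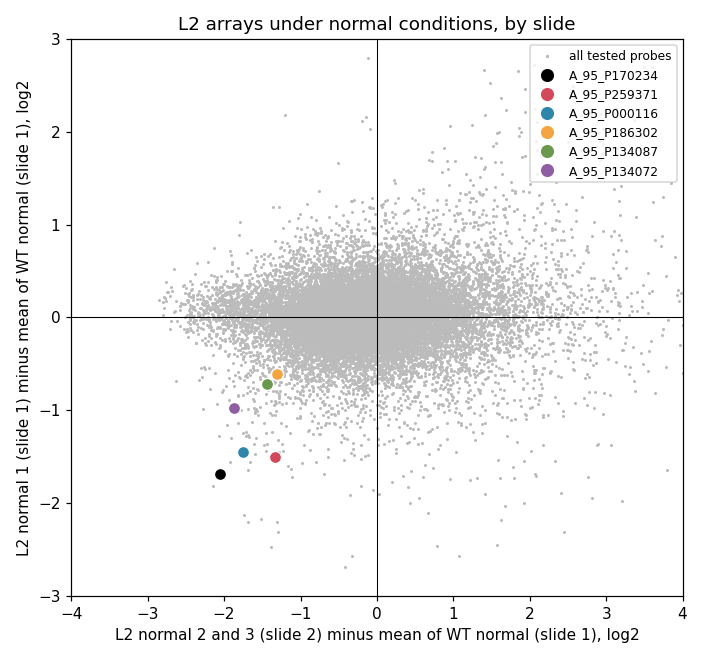
Differences of the L2 normal arrays to the WT normal mean for all probes tested (grey) and the 6 APS reductase-like probes (coloured). The x axis is the mean of L2 normal 2 and 3 on slide 2 and the y axis is L2 normal 1 on slide 1, both in log2. The 6 probes lie between -2.05 and -1.31 on the x axis and between -1.68 and -0.61 on the y axis, while the grey points centre near 0 on the y axis.

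In WT the probes were lower after salt. The 3 WT salt arrays lay below the 3 WT normal arrays for 6 of 6 probes, as for 41.0% of all probes tested, and WT salt 1 and 2 were among the arrays that chose the probes. WT salt was at 19.0% to 51.4% of WT normal, as a ratio of geometric means of scaled values. Before scaling, A_95_P134087 was at 2418 to 2985 on WT normal and 2745 to 3166 on WT salt arrays. A_95_P186302 was at 1361 to 1771 and 1469 to 1878, so both were lower after salt only once scaled. A_95_P170234, A_95_P000116 and A_95_P134072 were lower on every WT salt array before scaling too, and A_95_P259371 overlapped. The median difference over the 6 was -1.61, against -0.19 over all probes. With the slide as a block the differences ran from -2.29 to -0.27, and those of A_95_P186302 (-0.31), A_95_P134087 (-0.27) and A_95_P134072 (-1.02) were closer to 0 by over 1.5 times.

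The difference was largest for A_95_P170234, which was at -3.19, -3.50 and -2.55 on the WT salt arrays. It differed from WT normal by -2.39 ± 0.48 (SE). A_95_P000116 was at -0.28, -0.47 and -0.32, a difference of -2.0 ± 0.41. The salt arrays of this probe lay close together, with an SD of 0.10, but 1 low spot entered the value of WT salt 3. Without that spot WT salt 3 was at -0.07, above the other WT salt arrays.

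A_95_P134072 was at 0.69, 0.47 and 0.71 after salt, -1.87 ± 0.33 from WT normal. A_95_P259371 was at -0.64, -0.77 and -0.27, a difference of -1.36 ± 0.43. The remaining probes had the smallest differences. A_95_P186302, at -0.07, -0.42 and -0.16, differed by -0.98 ± 0.33, and A_95_P134087, at 0.67, 0.48 and 0.66, by -0.96 ± 0.33. WT salt 2 was the lowest of the 3 arrays for 6 of 6 probes.

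WT salt 3, which did not choose the probes, gave the same direction. Set alone against the 3 WT normal arrays in a limma fit with sample 3 of each salt group apart, it was lower by 0.90 to 1.97 on the log2 scale, and it was below all WT normal arrays for 6 of 6 probes, as for 54.7% of all probes. A_95_P000116 differed by -1.97 ± 0.43 (adjusted p = 0.0617, limma), A_95_P134072 by -1.79 ± 0.44 (adjusted p = 0.0840, limma) and A_95_P170234 by -1.86 ± 0.50 (adjusted p = 0.102, limma). The other 3 had adjusted p of 0.183 to 0.26. Limma counted 0 of 6, against 1.82% of all probes, and 4 of 6 had an unadjusted p below 0.05, as did 22.7% of all probes. Without L2 normal 1 or without L2 normal 3, arrays that enter this comparison only through the estimate of spread, 3 of 6 were counted, and 9.24% and 2.97% of all probes were then counted as lower. Array weights gave 4 of 6 and 11.3% of all probes as lower.

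The 5 spots of A_95_P000116 disagreed on WT salt 3. One spot was at -1.30 and the other 4 between -0.23 and 0.00, a range of 1.30, whereas on the other 11 arrays the range over the spots was at most 0.34. With the other 4 spots only, WT salt 3 was at -0.07 and its difference to the WT normal mean was -1.72.

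In L2 the probes had higher group means after salt than without, and the salt arrays were split. L2 salt 1 and 2 were above all 3 L2 normal arrays for 5 of 6 probes, as were 14.1% of all probes, whereas L2 salt 3 was the lowest of the L2 salt arrays for 6 of 6. Only A_95_P134087 had all 3 L2 salt arrays above all L2 normal arrays, 1 of 6 against 8.49% of all probes. The median difference was 0.84, against 0.00 over all probes, and 0.46 without L2 normal 3. Single probes moved by over 1.5 times when 1 array was left out. A_95_P170234 was at 0.18 without L2 normal 3, 0.17 without L2 salt 2 and 1.11 without L2 salt 3, and a slide block put it at -0.083. A_95_P134072 was at 0.055 without L2 normal 3, 0.23 without L2 salt 2, 0.71 without L2 salt 3 and 0.73 without L2 normal 1. A_95_P000116 was at 0.33, 0.36 and 1.2 without L2 normal 3, L2 salt 2 and L2 salt 3, and without L2 normal 3 A_95_P186302 was at 0.59 and A_95_P134087 at 0.71.

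A_95_P259371 was at 0.97, 1.29 and -0.48 on the L2 salt arrays and differed from L2 normal by 1.18 ± 0.43 (SE). A_95_P134087 was at 1.60, 1.86 and 0.86, a difference of 1.08 ± 0.33. A_95_P186302 was at 0.85, 1.01 and 0.15, a difference of 0.98 ± 0.33. On L2 salt 1 and 2 these 3 probes reached the range of the WT normal arrays or exceeded it.

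A_95_P000116 was at 1.02, 1.38 and -0.31, 0.70 ± 0.41 above L2 normal. A_95_P170234 was at -1.82, -1.18 and -3.06, a difference of 0.59 ± 0.48. A_95_P134072 was at 1.50, 1.78 and 0.81, a difference of 0.44 ± 0.33. For these 3 probes L2 salt 1 and 2 stayed below all WT normal arrays, and L2 salt was at 39.5% to 51.7% of WT normal.

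Sample 3 of the L2 salt group, which took no part in choosing the probes, was not counted as different from L2 normal for any of them. Its differences ran from -0.45 ± 0.50 for A_95_P170234 to 0.50 ± 0.43 for A_95_P134087, with adjusted p of 0.652 to 0.933 from limma. Limma counted 0 of 6, against 0.163% of all probes, and 0 of 6 had an unadjusted p below 0.05, as did 13.1% of all probes. L2 salt 3 lay within the range of the L2 normal arrays for 5 of 6 probes, and the share of all probes for which it did was not computed. The SEs were 0.41 to 0.50, so changes of the size of the group differences in L2 could hardly be detected with this array, and a count of 0 does not show that the values were alike.

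Under salt, L2 had the higher group mean for 6 of 6 probes, by 0.74 to 1.15 on the log2 scale with SEs of 0.33 to 0.48, which describes the arrays that chose them. The groups did not overlap for 3 of 6 probes, A_95_P186302, A_95_P134087 and A_95_P134072, against 8.44% of all probes with L2 above WT. On slide 3, L2 salt 1 was above WT salt 3 by 0.73 to 1.33 and L2 salt 2 by 1.07 to 1.70. L2 salt 3 lay between -0.52 and 0.31 of WT salt 3, on the same slide.

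The arrays of sample 3 alone, L2 against WT, gave 0.31 ± 0.56 for A_95_P186302, 0.20 ± 0.53 for A_95_P134087, 0.10 ± 0.54 for A_95_P134072 and 0.01 ± 0.53 for A_95_P000116. A_95_P259371 was at -0.21 ± 0.51 and A_95_P170234 at -0.52 ± 0.61. The adjusted p was 0.983 to 1.00 from limma, 0 of 6 were counted, as were 0.0836% of all probes, and 0 of 6 had an unadjusted p below 0.05, as did 7.08% of all probes. With 1 array on each side and SEs of 0.51 to 0.61, this comparison could hardly count a probe, and the count of 0 does not show that the lines were alike. The median over the 6 probes was 0.06 on these arrays, against 0.97 over all salt arrays.

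**Figure D4:**
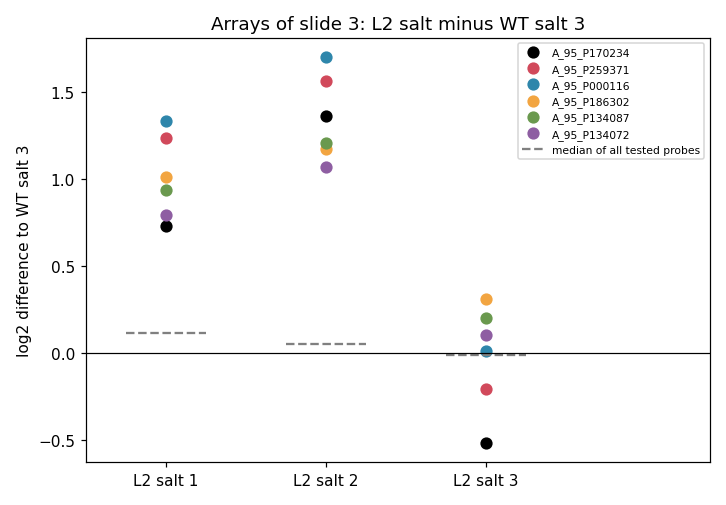
Log2 difference of each L2 salt array to WT salt 3 on the same slide, for the 6 probes (coloured) and as the median of all probes tested (dashed). L2 salt 1 and 2 lie between 0.73 and 1.70 above WT salt 3, and L2 salt 3 between -0.52 and 0.31.

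The group means thus gave a salt change of opposite sign in the lines for 6 of 6 probes, and for 5 of 6 with the slide as a block, where A_95_P170234 was lower after salt in both lines. The change in L2 minus that in WT was 1.96 ± 0.47 (SE) for A_95_P186302, 2.04 ± 0.47 for A_95_P134087 and 2.30 ± 0.46 for A_95_P134072. It was 2.54 ± 0.60 for A_95_P259371, 2.71 ± 0.58 for A_95_P000116 and 2.98 ± 0.67 for A_95_P170234. The median was 2.42, against 0.15 over all probes. The value adds up the low level of L2 without salt, which was tested above, and the salt arrays that chose the probes.

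In the order of group means, WT normal was highest for 6 of 6 probes and L2 salt second for 6 of 6. L2 normal and WT salt shared the lowest places, with L2 normal lowest for 3 probes and WT salt for 3, and their arrays overlapped for 6 of 6. WT normal and L2 salt overlapped for 3 of 6, namely A_95_P259371, A_95_P186302 and A_95_P134087. L2 salt and the next group in this order overlapped for 4 of 6. Shares of all probes with these orders of groups or these overlaps were not computed.

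The 6 probes moved together from array to array within groups too. L2 normal 3 was the lowest L2 normal array, L2 salt 3 the lowest L2 salt array, L2 salt 2 the highest L2 salt array and WT normal 1 the lowest WT normal array for 6 of 6 probes each. The shares of all probes with such orders within groups, here and above, were not computed. Deviations were shared over the array too, with r = 0.41 between L2 normal 3 and L2 salt 3 over the probes tested. After each group mean was taken off, Pearson's r between pairs of probes over the 12 arrays was 0.73 to 0.99, with a median of 0.89 over 15 pairs, and Spearman's rho was 0.73 to 1.00. The closest pair was A_95_P186302 and A_95_P134087 and the least close A_95_P259371 and A_95_P134072. These values are descriptions, since the points share their hybridisation and scaling and include the salt arrays that chose the probes. Over the arrays under normal conditions the lines form separate clusters of 3 for these probes, so no pooled correlation is given there.

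The deviations of each probe followed the mean of the other 5 with r of 0.89 to 0.97. With group differences left in, r was 0.92 to 0.98 over 12 arrays, which the choice of the probes on salt arrays bears on directly.

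**Figure D5:**
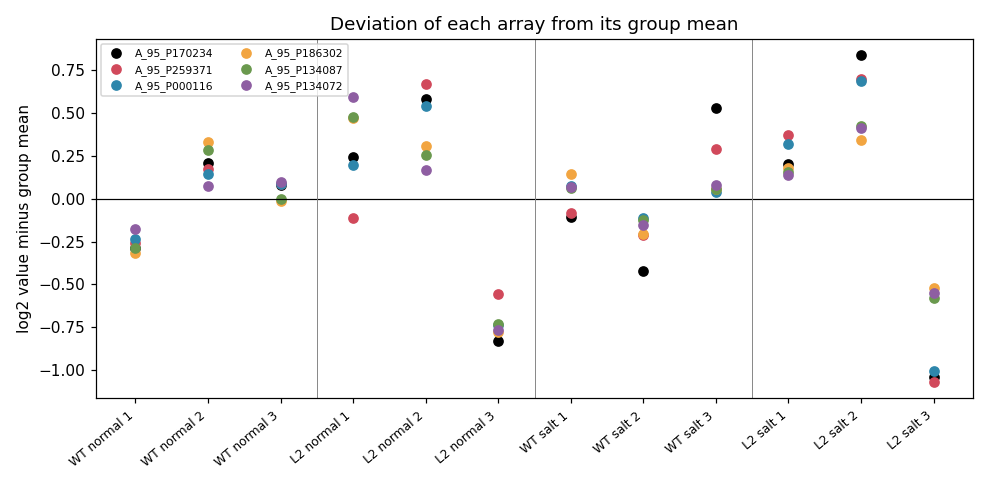
Log2 value minus group mean for each of the 12 arrays, with the 6 probes as coloured points and vertical lines between the groups. The 6 probes lie on the same side of 0 on L2 normal 2, L2 normal 3 and on the 3 L2 salt arrays, and L2 salt 3 is between -1.07 and -0.52.

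The probes outside the 6 whose pattern over the 12 arrays was most like their mean were A_95_P151202 (r = 0.96), A_95_P129057, A_95_P124847, A_95_P006831 and A_95_P138107 (each r = 0.95). Their descriptions were not looked up here. Relative to the WT normal mean, A_95_P151202 was at -0.57, -0.73 and -1.47 on the L2 normal arrays and at -1.12, -0.93 and -0.70 on the WT salt arrays. It shared with the APS reductase-like probes the low L2 normal 3 and the position of L2 normal 1 below WT. Its choice by r over these same arrays favours such a likeness.

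A probe annotated in the same list as a sulphur deficiency-induced protein, A_95_P053311, named for transcripts that rise when sulfur is short, did not separate the lines without salt. It was at 2.39, 1.72 and 1.83 on the WT normal arrays and at 2.01, 2.17 and 0.73 on the L2 normal arrays, so the lines overlapped. The difference was -0.34 ± 0.39 (SE), with an adjusted p of 0.581 from limma. L2 normal 1 lay within the WT range, 0.03 above the WT mean. After salt it was at 0.90, 0.62 and 0.91 in WT and at 1.85, 2.05 and 0.89 in L2, with L2 salt 3 again at the WT level. The change with salt was -1.17 ± 0.39 in WT and -0.04 ± 0.39 in L2. A test of the difference between this probe and the 6 was not run. Other steps of sulfate assimilation, such as sulfate transporters, ATP sulfurylase and sulfite reductase, and marker genes of leaf tissue were not analysed here, since the scanner values pair no descriptions with the probes.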

How the data were processed

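The 12 arrays were described in the labels as 3 samples each of WT and CbFAD3-transgenic plants under normal and salt conditions. The deposited scanner values are spot intensity values, which the authors extracted with Agilent's Feature Extraction software (version 11.5.1.1 in the file headers, 10.7.3.1 in the submitters' processing notes) with background subtraction. In the deposited table the values are log2 signals on the same scale as those used here: for 43748 probes printed as 1 spot, 100% of values lay within 0.01 of the scanner signal after one shift per array. Flags for outliers, saturation and background in the files were used as deposited. The columns of 0 other samples were found in that table. Slides were read from the array codes.

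Each array's log2 processed signals were set relative to their 75th percentile. Values of a probe are means over its spots, without control spots and without 32 spots flagged as outliers. The fit (limma 3.58.1, lmFit and eBayes, under R 4.3.3) took the 26312 of 43759 probes that were well above background throughout 1 or more groups. The fit of 4 groups had 8 residual degrees of freedom. The fit that set sample 3 of each salt group apart had 6, and its single arrays are assumed to vary like the others. P-values were adjusted over all probes tested by the Benjamini-Hochberg method. The members and lists were chosen with earlier results of these data known. The rule named the 6 probes, A_95_P053311, and the 5 probes with the highest Pearson's r to their mean. A planned pooled correlation over the normal arrays is not reported, because the lines form separate clusters.

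The fits were tested on simulated data. The number of arrays limits the precision. The main fits do not pair samples by replicate number, and a fit with that number as a block is given with the alternatives. Other tools were matplotlib 3.10.9, scipy 1.17.1, pandas 2.3.3 and numpy 2.4.6 in Python 3.11.15. Alternatives concerned background correction, scaling, filters, blocks, array weights, the methods' t-test and each array left out. Keeping the spots with an outlier flag, and other scalings for the position of L2 normal 1, were added after seeing the data.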

Additional observations from a re-analysis of the deposited data

Results flagged for a closer look

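A_95_P259371, A_95_P186302 and A_95_P134087 were flagged because every WT salt array lay below the WT normal mean and every L2 salt array above the L2 normal mean. Choosing probes higher in L2 than in WT under salt favours this pattern, and its share over all probes was not computed. For A_95_P259371, L2 salt 3 was at -0.48, close to the L2 normal mean of -0.59. The salt change of L2 minus that of WT was 2.54 on the log2 scale for A_95_P259371, 1.96 for A_95_P186302 and 2.04 for A_95_P134087. This difference was not tested, since the salt arrays had been used to choose the probes. With the slide as a block it was 2.36, 1.44 and 1.50. With 3 arrays per group, no search for outlying samples within groups was made.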

How the results depend on the processing

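L2 was below WT under normal conditions in all 168 values of the 6 probes over 28 settings. In scaled values every L2 normal array lay below every WT normal array, so leaving out an array could not change this direction. Other settings, such as the replicate block and the methods' t-test, leave the difference itself unchanged. Of 310 values for the comparisons as a whole, 300 kept their direction and their side of the threshold or stayed within the spread. Part of these could not change, since leaving out an array of another group leaves a difference of group means as it was. The median of L2 salt 3 against WT salt 3, for example, stayed at 0.06 whichever other array was left out. Under normal conditions the highest count came without L2 normal 1, which left the lines on separate slides. The number of the 6 probes counted under normal conditions, 0, became 4 with array weights and 0 to 5 when an array was left out. For WT salt 3 against WT normal it became 4 with array weights, 1 with a 75th percentile taken over probes detected on every array and 0 to 3 when an array was left out. The adjusted p under normal conditions ranged from 0.000174 to 1.00 over the 16 other settings and from 0.00313 to 0.606 over arrays left out. The methods' t-test gave 5 of 6 an unadjusted p below 0.05, as it did for 2326 of 26312 probes, and counted 0 of 6 after Benjamini-Hochberg adjustment.

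With the slide as a block the median salt change in WT was -1.35 and the difference of the salt changes 1.92, with values of single probes from -2.29 to -0.27 and from 1.44 to 2.47. The salt change of A_95_P170234 in L2 went from 0.59 to -0.083. WT salt 3 against WT normal gave -1.14 with the median of each array and -1.14 with the replicate block. That comparison and L2 salt 3 against L2 normal could not be fitted with the slide as a block. Small differences for sample 3 changed sign too. For L2 salt 3 against WT salt 3, A_95_P000116 gave -0.12 and A_95_P134072 gave -0.029 with the median of each array, and A_95_P000116 gave -0.0049 with that 75th percentile. For L2 salt 3 against L2 normal, A_95_P134072 gave 0.022 with the median of each array, 0.22 with the replicate block and -0.50 to 0.18 when an array was left out. A_95_P000116 gave 0.023 with the replicate block, and A_95_P259371 gave -0.39 with array weights and -0.17 to 0.45 when an array was left out. The causes were not tested.

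Deviations of samples with the same number correlated at -0.39 to 0.41 over 18 pairs, 7 of them below 0. Between L2 normal and L2 salt these values were 0.36, 0.06 and 0.41. Whether the numbers pair the samples was not tested, and the main fits treat the samples as unpaired. With the replicate block under normal conditions the adjusted p of the 6 probes was 0.205 to 0.21, and 0 of 6 were counted. Scaling by the median of each array moved the median of all probes from -0.19 to 0.10 for WT salt 3 against WT normal and from 0.00 to 0.14 for salt in L2. Spots with an outlier flag concern 1 spot of A_95_P000116 on 6 arrays.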
